A study of Mus musculus with 32 samples.

Results

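Peaks whose nearest gene encodes an ion channel or a neurotransmitter receptor were drawn from the ATAC-seq peak lists of mouse orbitofrontal cortex (OFC) astrocytes. ATAC-seq marks DNA that a transposase can enter, and a peak is a stretch where the fragments pile up above background. Members were all peaks on chromosomes 1 to 19 whose nearest gene has a symbol starting with Kcn, Scn, Cacn, Trpc, Trpm, Trpv, Gria, Grid, Grik, Grin, Grm, Gabr, Glr, Htr, Chrn or Chrm. These were 245 of 13794 autosomal peaks over 6 lists, and they named 22 genes.

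Each list stands for 1 group of male C57BL/6J mice, and each sample pooled the astrocytes of 3 mice, bought at 6 to 12 weeks of age and isolated with anti-ACSA-2 beads. In the knockdown experiment the OFC received an AAV6 virus in which the astrocyte promoter GFAP drives GFP with a control microRNA, or a microRNA against Zbtb7a (Zbt-KD), a chromatin-binding transcription factor. Mice were then left unstressed (GFP control, Zbt-KD control) or underwent 10 days of chronic social defeat stress (GFP CSDS, Zbt-KD CSDS), with 5 samples a group. In the overexpression experiment the virus carried GFP or ZBTB7A, and the mice, 8 weeks old, underwent 1 day of subthreshold defeat (GFP SSDS, ZBT-OE SSDS), with 6 samples a group. The defeat is known from the study alone, since the labels give these samples no stress group. All 6 groups had thus received a virus, and the SSDS experiment has no unstressed list here. Bead isolation enriches astrocytes but does not give a pure population.

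The deposited lists hold 1 set of peaks per group and no value per sample, so no spread between mice can be given and no test was run. Intervals are 95% Wilson intervals of a share or order-statistic intervals of a median, they cover counting error only, and they treat neighbouring peaks as separate although many lie side by side at 1 locus. The lists were not called at the same scale. The median width of all autosomal peaks was 1.98 kb in GFP control, 4.04 in GFP CSDS and 32.9 to 73.1 kb in the other lists, and the number of peaks fell from 5416 to 1199. A count of peaks therefore depends on the scale, and the length covered is given beside it. Zbtb7a itself (chr10:81135220-81152995) lay at least 97.9 kb from a peak in every list, so the lists do not check the knockdown or the overexpression.

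Ion channels set the membrane potential and shape its changes, and ionotropic receptors are channels that a transmitter opens. Astrocytes hold a very negative membrane potential, take up extracellular potassium through inward rectifier channels, and sense GABA and glutamate through some of the same receptor families as neurons. GABA-A receptors are chloride channels built from alpha, beta and further subunits, and ionotropic glutamate receptors include the AMPA, kainate and NMDA families.

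Most member peaks did not lie at the genes that name them. Of the 245 peaks, 193 (78.8%) were intergenic and 52 (21.2%) intronic in the deposited annotation. None of the 245 was annotated as a promoter, which allows a share of up to 1.22%, while 148 of all 13794 autosomal peaks were (1.07%, interval 0.914 to 1.26%). The intron was that of the named gene for 36 peaks and of another gene for 16, and 47 peaks overlapped the body of the named gene. The start site of the named gene lay within a peak in 13 cases, at Trpc6, Gabrb1, Kcnh5, Kcnd2, Glra3 and Grin3b. These 13 peaks were annotated intronic or intergenic too, so the class does not give all that a wide peak covers.

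The promoters of those 6 genes are shown because they are the start sites that a member peak covers. Each run is the 250 bases before the RefSeq start site (GRCm38.p6, the same coordinates as mm10), read in the direction of transcription, with every CG dinucleotide in capitals.
Trpc6, chr9:8543892-8544141, plus strand: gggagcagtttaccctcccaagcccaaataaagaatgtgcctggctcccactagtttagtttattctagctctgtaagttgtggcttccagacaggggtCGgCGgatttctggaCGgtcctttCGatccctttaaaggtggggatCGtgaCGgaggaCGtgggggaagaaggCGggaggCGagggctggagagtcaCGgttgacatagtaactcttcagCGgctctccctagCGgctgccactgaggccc
Gabrb1, chr5:71657671-71657920, plus strand: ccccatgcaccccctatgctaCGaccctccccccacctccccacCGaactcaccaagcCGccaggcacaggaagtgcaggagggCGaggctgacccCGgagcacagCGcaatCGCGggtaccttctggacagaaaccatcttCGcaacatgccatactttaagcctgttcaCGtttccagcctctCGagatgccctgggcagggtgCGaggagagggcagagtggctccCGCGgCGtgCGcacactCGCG
Kcnh5, chr12:75177333-75177582, minus strand: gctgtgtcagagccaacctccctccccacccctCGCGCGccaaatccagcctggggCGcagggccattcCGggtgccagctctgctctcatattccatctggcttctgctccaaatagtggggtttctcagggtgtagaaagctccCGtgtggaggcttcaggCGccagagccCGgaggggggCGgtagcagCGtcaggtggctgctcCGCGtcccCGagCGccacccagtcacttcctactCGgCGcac
Kcnd2, chr6:21215096-21215345, plus strand: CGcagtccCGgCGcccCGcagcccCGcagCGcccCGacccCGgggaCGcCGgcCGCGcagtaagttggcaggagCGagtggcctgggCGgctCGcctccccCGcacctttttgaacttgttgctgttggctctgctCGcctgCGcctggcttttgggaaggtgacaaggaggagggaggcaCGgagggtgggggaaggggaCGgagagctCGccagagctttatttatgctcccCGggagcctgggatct
Glra3, chr8:55940168-55940417, plus strand: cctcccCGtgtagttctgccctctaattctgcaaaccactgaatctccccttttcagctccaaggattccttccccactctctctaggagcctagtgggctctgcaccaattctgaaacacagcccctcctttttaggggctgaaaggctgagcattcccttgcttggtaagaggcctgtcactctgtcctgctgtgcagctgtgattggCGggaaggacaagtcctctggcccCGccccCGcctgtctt
Grin3b, chr10:79970474-79970723, plus strand: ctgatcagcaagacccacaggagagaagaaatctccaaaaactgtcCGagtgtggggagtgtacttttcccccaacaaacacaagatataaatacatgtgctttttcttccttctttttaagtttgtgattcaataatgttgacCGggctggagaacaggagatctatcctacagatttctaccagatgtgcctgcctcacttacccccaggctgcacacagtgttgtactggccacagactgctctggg

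The runs of Kcnd2, Gabrb1, Kcnh5 and Trpc6 held 22, 18, 16 and 12 CG dinucleotides, and those of Glra3 and Grin3b held 4 and 2. In the full RefSeq window of 300 bases, the median over 32851 windows of all genes was 7 CG, and the 6 genes ranged from 3 (Grin3b) to 26 (Kcnd2). The TATA box letters TATAAA, searched on both strands, were in 1 of the 7 windows of these genes (that of Grin3b, 14.3%), against 13.6% of all windows. The 2 parts searched of the RE1 element, which the neuronal gene repressor REST binds, were CAGCACC and GGACAGC. Neither was in any of the 7 windows on either strand, and they were in 7.14% and 6.56% of all windows. A RefSeq window was found for 18 of the 22 genes.

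By role, glutamate receptor genes named 92 peaks (5 genes), potassium channel genes 91 (6 genes), GABA-A receptor genes 36 (5 genes) and TRP channel genes 7 (2 genes). The serotonin receptor gene Htr1f named 10, the muscarinic receptor gene Chrm3 named 6 and the glycine receptor gene Glra3 named 1. The remaining 2 peaks were nearest to Glrx, a glutaredoxin that the prefix matches and that is no channel. Kcnj3 named 67 peaks, Grik2 30 and Grin3a 24.

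**Figure D1:**
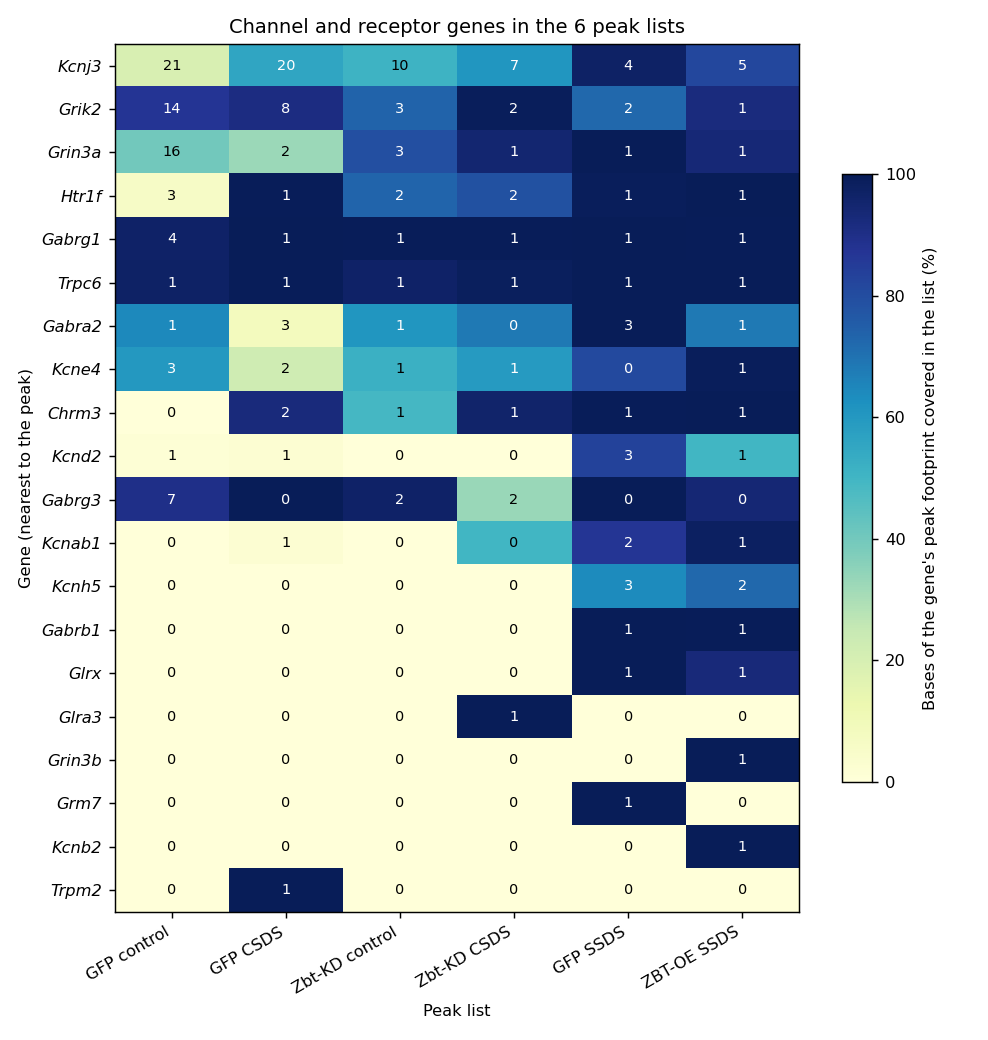
Number of peaks nearest to each of 20 of the 22 genes (rows, digits) in each of the 6 peak lists (columns). The colour gives the share of the gene's footprint, the bases under its peaks in any list, that a peak of any name covered in that list. Trpc6 and Gabrg1 were dark in all 6 lists, while Kcnh5 and Gabrb1 were covered only in the GFP SSDS and ZBT-OE SSDS lists.

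The TRP channel gene Trpc6, which encodes a cation channel gated by diacylglycerol, had 1 wide peak that hardly differed between the lists. Its width was 490 kb in GFP control, 503 in GFP CSDS, 490 in Zbt-KD control, 499 in Zbt-KD CSDS, 505 in GFP SSDS and 506 in ZBT-OE SSDS. In each list it was also the widest member peak. It covered the whole gene body of 137 kb with its start site, and a stretch of 489 kb (chr9:8281404-8770113) was common to all 6 lists. Its fold enrichment, the peak's signal over the caller's background, was 3.40, 3.75, 3.51, 3.50, 4.37 and 4.90 in the same order. These values are comparable only within a list, where they stood at the 92.3rd to the 98.0th percentile of all peaks. The middle of the common stretch is shown as the core of a peak that every list holds, in the plus direction, where 178 of 240 bases are repeat-masked and no CG occurs.
Trpc6, chr9:8525639-8525878: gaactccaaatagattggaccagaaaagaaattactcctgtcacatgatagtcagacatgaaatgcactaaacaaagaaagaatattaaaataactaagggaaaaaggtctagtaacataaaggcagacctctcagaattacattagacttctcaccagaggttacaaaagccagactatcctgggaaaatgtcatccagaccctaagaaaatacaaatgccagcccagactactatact

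Trpm2, a calcium-permeable channel gated by ADP-ribose, had a single intronic peak of 2.99 kb, in GFP CSDS. At the cold sensor Trpm8 (112 kb) a peak named for another gene, 6430706D22Rik, held the start site and covered 9.69% of the gene body in GFP SSDS and 26.5% in ZBT-OE SSDS, and no other list had a peak in its body.

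Among the GABA-A receptor genes, Gabrg1, Gabra2 and Gabrb1 lie in a gene cluster on chromosome 5 and Gabrg3 on chromosome 7. Gabrg1 encodes a gamma subunit that astrocytes express. It had 4 peaks in GFP control and 1 in each other list, and the length covered was 214 kb in GFP control, 219 in Zbt-KD control and 220 kb in the other 4 lists. The peaks were intergenic, with centres 484 to 603 kb downstream of the start site, and 96.8% of the region was common to all 6 lists. The middle of its longest common stretch (137 kb) held 2 CG in 240 bases at a GC content of 30.8%, and only 25 of the bases are repeat-masked.
Gabrg1, chr5:70358852-70359091: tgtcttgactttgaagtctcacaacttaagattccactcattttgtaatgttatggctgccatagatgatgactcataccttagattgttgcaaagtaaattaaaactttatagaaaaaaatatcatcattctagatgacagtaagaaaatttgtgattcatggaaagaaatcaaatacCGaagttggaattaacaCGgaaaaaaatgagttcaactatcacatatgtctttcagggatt

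Gabrb1, a beta subunit gene, separated the experiments. It had no peak in the 4 lists of the knockdown experiment, where the closest peak lay 256 to 257 kb away. It had 1 peak of 276 kb in GFP SSDS (fold enrichment 2.37, 67.6th percentile) and 1 of 274 kb in ZBT-OE SSDS (2.84, 75.9th percentile). The GFP SSDS peak (chr5:71556289-71832058) covered the start site and 35.4% of the gene body. It also covered 100% of the adjoining alpha subunit gene Gabra4 (88.6 kb), which is transcribed in the opposite direction and which no peak was named for. Both GFP SSDS and ZBT-OE SSDS held this peak, so it did not separate ZBTB7A overexpression from its control. The 2 experiments differ in viral construct, stress, cohort of mice, number of samples a group and list scale together, and these cannot be told apart.

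Gabra2, an alpha subunit gene, named peaks upstream of its start, with centres at 108 to 211 kb. The length was 83.5 kb in GFP control, 11.2 kb in GFP CSDS (3 small peaks), 78.9 kb in Zbt-KD control, 130 kb in GFP SSDS and 88.5 kb in ZBT-OE SSDS. No peak was named for Gabra2 in Zbt-KD CSDS, but a peak named for Cox7b2 covered 68.1% of the same footprint there, against 8.59% in GFP CSDS. Gabrg3, a gamma subunit gene, had all 11 of its peaks in intron 5, with 129 kb in GFP control, 139 in Zbt-KD control and 37.3 in Zbt-KD CSDS. In GFP CSDS, GFP SSDS and ZBT-OE SSDS a wider peak named for Oca2 covered 94.0 to 100% of that footprint, so each list had a peak there, under one name or the other. Coverage of the Gabrg3 footprint was lowest in Zbt-KD CSDS, at 33.0%.

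Glutamate receptor genes named the most peaks in GFP control, many of them narrow and side by side where a wider list had 1 long peak. They named 50 peaks in GFP control, 18 in GFP CSDS, 9 in Zbt-KD control, 5 in Zbt-KD CSDS, 7 in GFP SSDS and 3 in ZBT-OE SSDS. Grik2, a kainate receptor subunit gene, had 14, 8, 3, 2, 2 and 1 peaks in that order. The length covered by those peaks was 313, 331, 296, 439, 277 and 301 kb. The counts thus fell 14 to 1 while the length stayed between 277 and 439 kb. All but 1 of the 30 peaks lay upstream of the gene, starting 44.4 kb from its start site by peak centre, and a stretch of 197 kb (chr10:49912428-50109543) was common to all 6 lists.

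Grin3a, which encodes the NMDA receptor subunit GluN3A, had 16, 2, 3, 1, 1 and 1 peaks, which covered 65.8 kb in GFP control, 54.0 in GFP CSDS, 148 in Zbt-KD control, 177 in Zbt-KD CSDS, 187 in GFP SSDS and 175 in ZBT-OE SSDS. All lay upstream of the gene, with centres 545 to 680 kb from its start. The GFP control and GFP CSDS lists had the lowest coverage of this footprint, 40.1% and 32.7% counting peaks of any name, and the other 4 lists lay well above both. The gene body of Grin3a was itself overlapped in all 6 lists, over 15.4 to 38.1% of its length, by peaks named for Ppp3r2 and Zfp189. Grin3b, the gene of GluN3B, had 1 peak of 25.6 kb in ZBT-OE SSDS, which covered the 6.48 kb gene whole and had a fold enrichment of 1.39, at the 2.82nd percentile of its list.

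Grm7, a group III metabotropic receptor gene, had 1 intergenic peak of 21.5 kb, in GFP SSDS.

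**Figure D2:**
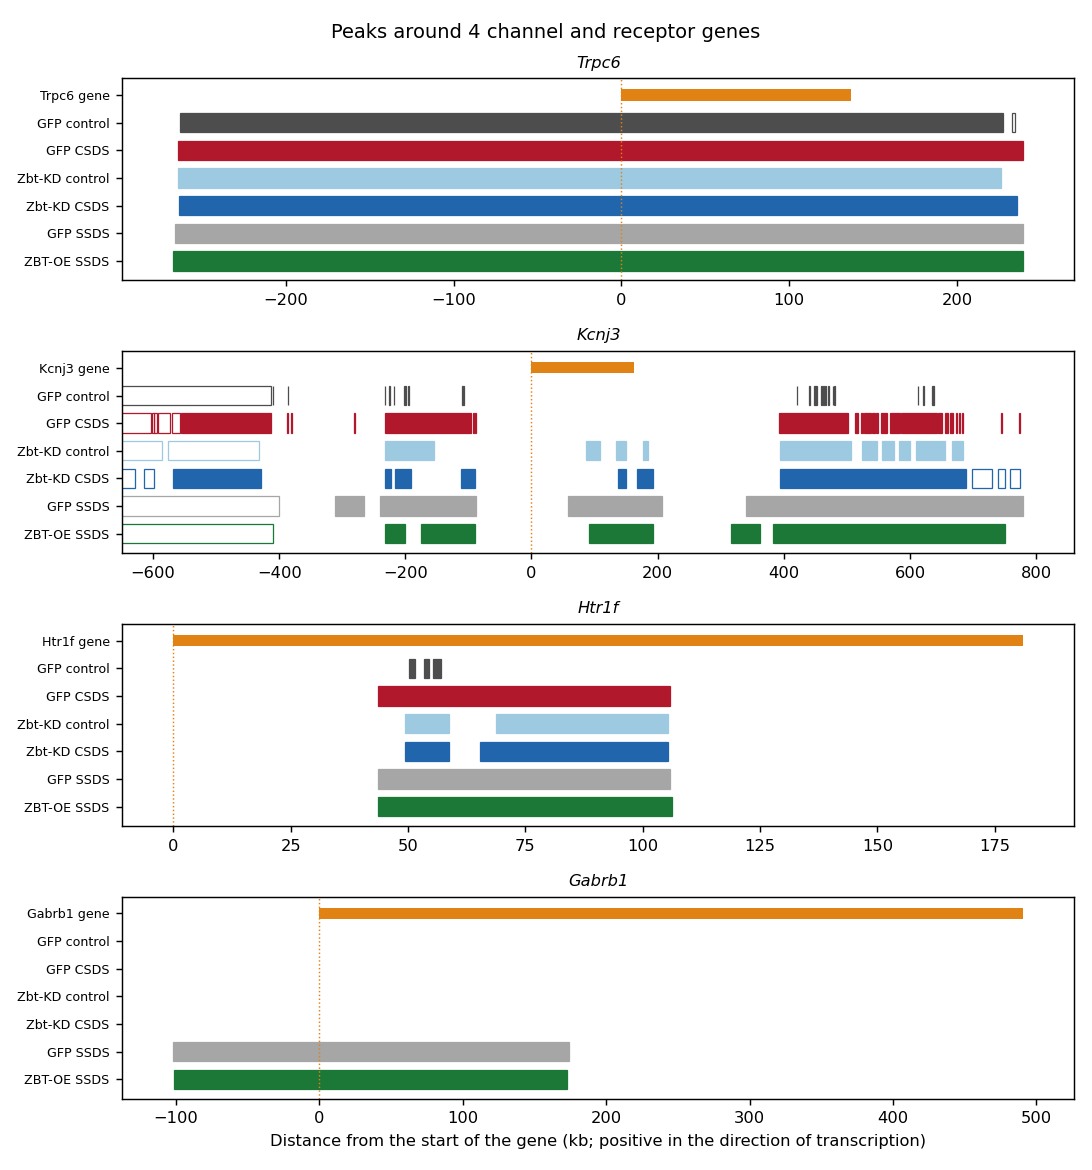
Peaks of the 6 lists (rows) around Trpc6, Kcnj3, Htr1f and Gabrb1 (bars end at the edge of the window), as distance in kb from the gene's start, positive in the direction of transcription. Filled bars are peaks named for the gene, open bars peaks named for another gene, and the orange bar is the gene. Trpc6 lies inside 1 peak in all lists, the Htr1f intron holds only narrow peaks in GFP control, and Gabrb1 has a peak only in GFP SSDS and ZBT-OE SSDS.

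Among potassium channel genes, Kcnj3 named the most peaks. It encodes Kir3.1 (GIRK1), an inward rectifier opened by G protein-coupled receptors. It had 21 peaks in GFP control, 20 in GFP CSDS, 10 in Zbt-KD control, 7 in Zbt-KD CSDS, 4 in GFP SSDS and 5 in ZBT-OE SSDS. They covered 32.3 kb in GFP control, 523 in GFP CSDS, 359 in Zbt-KD control, 531 in Zbt-KD CSDS, 787 in GFP SSDS and 634 in ZBT-OE SSDS. The GFP control list thus had many narrow peaks and the least ground. Counting peaks of any name, the share of the Kcnj3 footprint of 971 kb covered was 19.3% in GFP control and 51.0 to 97.1% in the other lists. Over all autosomal peaks the length went from 144 Mb in GFP control to 169 Mb in GFP CSDS and 226 Mb in ZBT-OE SSDS.

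Of the Kcnj3 peaks, 24 had their centre upstream of the start site and 43 downstream of it, at 89.1 to 675 kb. The gene body held peaks in 4 lists and none in GFP control or GFP CSDS. The share of the body covered was 22.9% in Zbt-KD control, 7.79% in Zbt-KD CSDS, 64.3% in GFP SSDS and 43.5% in ZBT-OE SSDS. The 5 peaks at the body were annotated to the last intron of a Kcnj3 transcript. The other 6 intronic peaks lay upstream, in Galnt13, a glycosyltransferase gene.

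The other potassium channel genes had few peaks. Kcne4, an auxiliary subunit gene, had all 8 of its peaks downstream, with centres at 149 to 198 kb, in an intron of the noncoding gene Gm29536. They covered 24.3 kb in GFP control, 12.4 in GFP CSDS, 16.5 in Zbt-KD control, 14.9 in Zbt-KD CSDS and 97.2 in ZBT-OE SSDS. No peak was named for Kcne4 in GFP SSDS. Counting peaks named for Gm29536 too, the share of the footprint covered was 59.8% in GFP control and 22.4% in GFP CSDS. It was 51.9% in Zbt-KD control, 59.1% in Zbt-KD CSDS, 81.1% in GFP SSDS and 99.2% in ZBT-OE SSDS. Kcnh5, a voltage-gated channel gene of the ether-a-go-go family, was named only in the overexpression experiment, with 3 peaks (96.5 kb) in GFP SSDS and 2 (109 kb) in ZBT-OE SSDS. A peak covered its start site in both. Kcnd2 encodes Kv4.2, which carries the transient A-type current. It had an intergenic peak of 1.93 kb in GFP control and 2.50 kb in GFP CSDS, 516 kb upstream, and in the overexpression experiment peaks nearer the gene (103 kb in GFP SSDS, 62.0 kb in ZBT-OE SSDS). Its start site lay within a peak in ZBT-OE SSDS only, and in GFP SSDS the closest peak began 17.3 kb from it. Kcnb2, a delayed rectifier gene, had 1 intronic peak of 21.3 kb, in ZBT-OE SSDS.

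Kcnab1, which encodes an auxiliary beta subunit, had 1.22 kb in GFP CSDS, 48.8 in GFP SSDS and 26.9 in ZBT-OE SSDS. In Zbt-KD CSDS and ZBT-OE SSDS a peak named for Vmn2r-ps11 also lay on its footprint. Counting peaks of any name, the footprint was covered over 2.18% in GFP CSDS, 49.9% in Zbt-KD CSDS, 86.9% in GFP SSDS and 97.8% in ZBT-OE SSDS. The GFP CSDS peak lay in intron 2, 8.44 kb past the nearest start site, and its fold enrichment of 2.07 stood at the 84.2nd percentile. It was the highest member peak to open with CSDS. Its middle, shown for that reason, is rich in CG (16 in 240 bases, GC content 65.4%), every base is repeat-masked, and the deposited annotation places the centre in an L1 element, a multicopy retrotransposon.
Kcnab1, chr3:65196425-65196664: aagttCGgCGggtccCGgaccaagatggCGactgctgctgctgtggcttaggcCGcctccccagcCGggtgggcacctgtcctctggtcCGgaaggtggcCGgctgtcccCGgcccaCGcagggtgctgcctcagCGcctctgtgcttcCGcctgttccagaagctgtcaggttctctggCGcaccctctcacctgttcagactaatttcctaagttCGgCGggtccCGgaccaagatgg
The highest member peak to close with CSDS, upstream of Grin3a, is shown beside it. It has no CG, a GC content of 38.3%, and 178 of 240 bases repeat-masked.
Grin3a, chr4:50402892-50403131: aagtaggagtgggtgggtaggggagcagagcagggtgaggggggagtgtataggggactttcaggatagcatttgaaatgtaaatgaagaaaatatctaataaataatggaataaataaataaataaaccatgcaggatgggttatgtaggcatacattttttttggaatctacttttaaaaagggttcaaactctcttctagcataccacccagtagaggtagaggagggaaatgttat

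Of the remaining receptors, the serotonin receptor gene Htr1f had all 10 of its peaks in its own intron 2. The length was 3.79 kb in GFP control, 62.2 in GFP CSDS, 45.9 in Zbt-KD control, 49.4 in Zbt-KD CSDS, 62.2 in GFP SSDS and 62.6 in ZBT-OE SSDS. GFP control was far below the others. The longest stretch common to all 6 lists was 1.64 kb (chr16:65048841-65050481), which is a whole GFP control peak, and its middle is shown as the core of an intronic member.
Htr1f, chr16:65049542-65049781: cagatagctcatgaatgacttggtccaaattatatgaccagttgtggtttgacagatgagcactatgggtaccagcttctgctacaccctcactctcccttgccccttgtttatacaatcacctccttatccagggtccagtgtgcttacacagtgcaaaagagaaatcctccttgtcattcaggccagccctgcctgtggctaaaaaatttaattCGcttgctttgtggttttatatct
Chrm3, the gene of the muscarinic M3 receptor, had no peak in GFP control, and 43.0 kb in GFP CSDS, 33.3 in Zbt-KD control, 65.3 in Zbt-KD CSDS, 67.6 in GFP SSDS and 68.0 in ZBT-OE SSDS. The peak centres were 549 to 573 kb upstream of its start. A peak named for Zp4-ps also lay on the Chrm3 footprint in GFP CSDS. With it 62.8 kb (92.4%) of the footprint was covered there, against 65.3 kb (96.0%) in Zbt-KD CSDS. Glra3, a glycine receptor alpha subunit gene, had 1 peak of 187 kb, in Zbt-KD CSDS only, which covered the start site and 64.2% of the gene body at a fold enrichment of 1.85, the 51.0th percentile. No peak of any other list touched it.

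Most channel and receptor genes had no peak. By the prefixes, 245 protein-coding genes are annotated on chromosomes 1 to 19, and 22 of them (8.98%) were nearest to a peak, against 7.87% of all 20780 coding genes. GABA-A receptor genes were named most often for the size of their family among families of over 10 genes, 5 of 16 (31.2%). No peak was nearest to any of 17 sodium channel genes, 9 calcium channel pore genes, 16 calcium channel auxiliary genes, 14 K2P leak potassium channel genes, 8 calcium- or sodium-activated potassium channel genes, 16 nicotinic receptor genes or 3 autosomal AMPA receptor genes. The 22 named genes were long, with a median of 229 kb against 34.8 kb for the 223 channel and receptor genes that named no peak. For all coding genes the medians were 19.6 kb with and 17.5 kb without a peak.

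A peak touched the body of 20 of the 245 genes in at least 1 list (8.16%), below the 2838 of 20780 coding genes (13.7%). Of these, 13 were also named for a peak and 7 were not, while 9 named genes had no peak in their body. Besides Gabra4 and Trpm8, the 7 were Cacna2d1, Kcnc2, Kcnmb2, Kcnq3 and Glrx3, a glutaredoxin gene. Kcnc2, a fast voltage-gated channel gene, was covered over 20.0 to 21.4% of its body in all 6 lists. Cacna2d1, an auxiliary calcium channel subunit gene, was not covered in GFP control, and was covered over 2.46% in GFP CSDS and 14.5 to 19.3% in the other lists. Kcnq3, a subunit of the M current, was covered over 7.97% in GFP control, 0.609% in GFP CSDS, neither of the Zbt-KD lists, and 23.8% in both lists of the overexpression experiment.

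Of 14 channel and receptor genes known from astrocytes, among them Kcnj10 (Kir4.1), Grm3, Gria2 and Trpm3, a peak overlapped only Gabrb1, in GFP SSDS and ZBT-OE SSDS. The closest peak to Kcnj10, the main inward rectifier of astrocytes, lay 511 to 1258.4 kb away. None of 14 genes typical of neurons, such as Scn2a and Grin1, was overlapped in any list. Cell type marker genes were seldom overlapped either. A peak overlapped 1 of 10 astrocyte markers (Atp1b2, in ZBT-OE SSDS), 1 of 10 neuron markers (Map2, in 4 lists), and none of 10 oligodendrocyte or 10 microglia markers. The labelled cell type is thus not visible by its markers here, and the purity of the cells cannot be read from them. A peak overlapped 6.03 to 12.2% of all autosomal coding genes, depending on the list, and 13.7% in at least 1 list. In sets of 10 or 14 genes, counts of 0 or 1 cannot be told apart from that share.

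The share of channel and receptor peaks, by nearest gene, was 1.70% (92 peaks, interval 1.39 to 2.08%) in GFP control, 1.55% (53, 1.19 to 2.03%) in GFP CSDS, 2.23% (29, 1.56 to 3.18%) in Zbt-KD control, 1.77% (21, 1.16 to 2.70%) in Zbt-KD CSDS, 2.18% (28, 1.51 to 3.14%) in GFP SSDS and 1.83% (22, 1.21 to 2.76%) in ZBT-OE SSDS. All 6 intervals overlapped. Taking peaks that overlap the body of a channel or receptor gene instead, the share ran from 0.440% in GFP CSDS to 1.58% in ZBT-OE SSDS. By length the members took 1.04 to 1.39% of the ground. Solute carrier genes named 0.929 to 1.72% of the peaks of a list, and cadherin and adhesion genes up to 3.82%.

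Member peaks lay far from start sites. The median distance from the peak centre was 408 kb in GFP control, 373 in GFP CSDS, 428 in Zbt-KD control, 254 in Zbt-KD CSDS, 135 in GFP SSDS and 192 in ZBT-OE SSDS. For all autosomal peaks it was 156, 119, 144, 144, 93.3 and 42.3 kb. The members' interval lay above that of all peaks in GFP control (346 to 465 kb), GFP CSDS (336 to 515 kb) and Zbt-KD control (194 to 556 kb), and overlapped it in the other 3 lists. In ZBT-OE SSDS the median of members depended on the setting: it was 74.9 kb in the upper 50% by fold enrichment (all peaks 50.8 kb), and 121 kb measured from the nearest peak edge. In all, 205 of 245 member peaks (83.7%) lay beyond 100 kb, and only 5 lay within 10 kb. Adhesion genes had larger medians in every list (514 to 829 kb) and solute carrier genes smaller ones (28.8 to 83.8 kb).

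**Figure D3:**
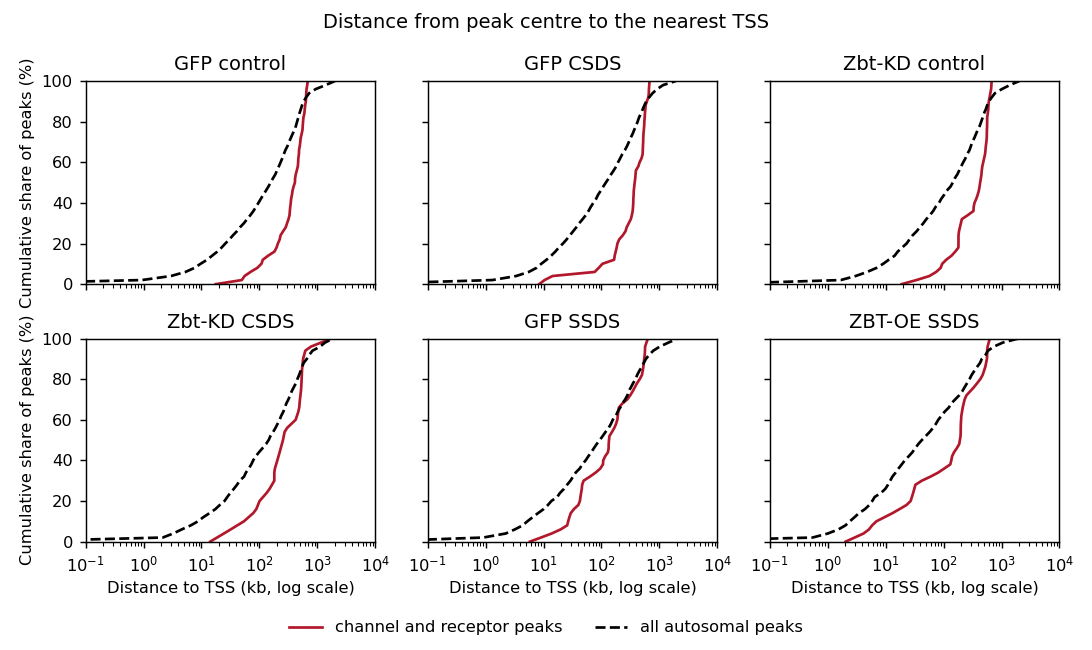
Cumulative share of peaks (vertical, %) by distance from peak centre to the nearest TSS (horizontal, kb, log scale), for channel and receptor peaks (solid) and all autosomal peaks (dashed) in each of the 6 lists. The solid line lies to the right of the dashed line at its middle in every list, with medians of 135 to 428 kb against 42.3 to 156 kb.

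The intronic share of members was 16.3% in GFP control, 15.1% in GFP CSDS, 24.1% in Zbt-KD control, 38.1% in Zbt-KD CSDS, 21.4% in GFP SSDS and 36.4% in ZBT-OE SSDS. For all autosomal peaks it was 15.5, 19.0, 17.7, 18.6, 24.4 and 28.9%. The largest gap, in Zbt-KD CSDS, rested on 8 of 21 peaks (interval 20.8 to 59.1%), which still touched the interval of all peaks (16.5 to 20.9%).

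Presence was compared in 5 contrasts, where a peak opened if the first list had it and no peak of the second overlapped it by 1 bp, and closed in the reverse case. Since each of the 4 lists of the knockdown experiment enters 2 contrasts, these are not independent of each other, and scale and the cells cannot be told apart in them. The first asks what chronic stress changes. With CSDS, 20 of 53 member peaks opened (37.7%, interval 25.9 to 51.2%), against a background of 48.2% over all autosomal peaks of that list. Of these 20, 15 were nearest to Kcnj3, 2 to Chrm3 and 1 each to Kcnab1 and Trpm2. In the other direction 15 of 92 closed (16.3%, 10.1 to 25.2%, background 29.2%), 7 of them near Grin3a and 1 each near Kcne4 and Kcnj3. The opened peaks had a median width of 3.93 kb, near the 4.04 kb of all autosomal peaks in that list. The opened ones made up 6.61% of the members' length there, against 7.84% for all peaks. The closed ones made up 1.98%, against 3.16%.

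The second contrast asks what the knockdown changes in stressed mice. In Zbt-KD CSDS against GFP CSDS, 4 of 21 peaks opened (19.0%, 7.67 to 40.0%, background 22.0%). They were the Glra3 peak, 2 Kcnj3 peaks and a Grik2 peak 1723.2 kb from its start. They made up 10.5% of the members' length, against 3.63% for all peaks, but the Glra3 peak alone was 187 of these 236 kb. In total 12 of 53 closed (22.6%, 13.5 to 35.5%, background 38.3%), among them 3 near Kcnj3 and 1 each near Kcnab1, Kcnd2 and Trpm2, and they made up 1.75% of the length, against 5.20%. The Kcnab1 and Trpm2 peaks were thus present in GFP CSDS and absent from both GFP control and Zbt-KD CSDS. They were 1.22 and 2.99 kb wide, and the narrowest autosomal peak of the Zbt-KD CSDS list was 6507 bp. Their absence from Zbt-KD CSDS therefore cannot be told apart from the scale of that list.

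In unstressed mice, Zbt-KD control against GFP control, 10 of 29 opened (34.5%, 19.9 to 52.7%, background 31.0%), 7 of them near Kcnj3. Only 7 of 92 closed (7.61%, 3.73 to 14.9%, background 28.8%), 3 of them near Kcnj3 and 1 each near Grik2, Kcnd2 and Kcne4. By length the opened peaks made up 10.3% against 6.05% and the closed ones 1.15% against 3.19%. This was the largest distance from the background in the 10 shares, and it depended on the threshold: among the upper 50% of each list by fold enrichment the share was 32.7% against 36.9%. In Zbt-KD CSDS against Zbt-KD control, 3 of 21 opened (14.3%, 4.98 to 34.6%, background 27.6%), near Glra3, Grik2 and Kcnj3, with 9.77% of the length against 4.63%. The Glra3 peak was again most of it, 187 of 220 kb. Here 2 of 29 closed (6.90%, 1.91 to 22.0%, background 24.3%), 1 of them near Kcnj3, with 1.81% of the length against 4.99%.

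The last contrast asks what ZBTB7A overexpression changes after subthreshold stress. In ZBT-OE SSDS against GFP SSDS, 4 of 22 opened (18.2%, 7.31 to 38.5%, background 31.4%), among them 1 each near Grin3b, Kcnb2 and Kcnh5, with 3.39% of the length against 6.44%. In reverse, 10 of 28 closed (35.7%, 20.7 to 54.2%, background 27.7%), among them 2 each near Gabra2 and Kcnd2, and 1 each near Grm7, Kcnh5 and Kcnj3. The closed peaks made up 12.8% of the members' length in GFP SSDS, against 4.92% for all peaks. Across the 10 shares, members lay below the background in 8, and the interval excluded it in 4, all of closed peaks. With all lists brought to 1 scale the members lay below the background in 5 of 10. There 4 of 15 peaks closed with CSDS (26.7%), above the background of 11.6%.

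**Figure D4:**
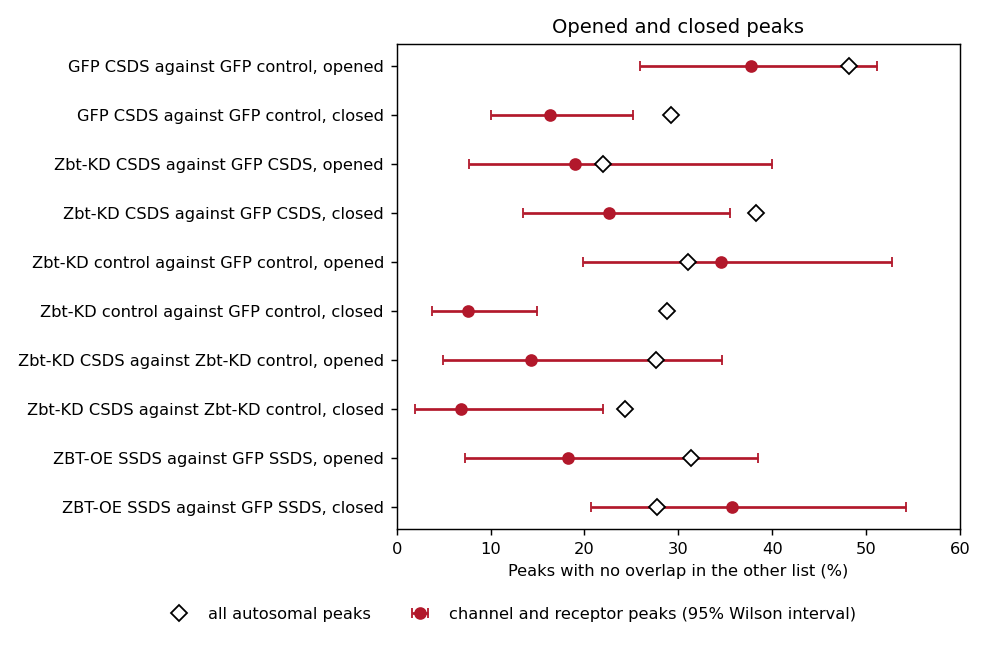
Share of channel and receptor peaks (filled circles, bars give 95% Wilson intervals over peaks) and of all autosomal peaks (open diamonds) with no overlap in the other list, for opened and closed peaks in 5 contrasts. The bar misses the diamond for closed peaks in the 4 contrasts of the knockdown experiment, and the overexpression contrast has the highest closed share, 35.7%.

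Of the 22 genes, 6 were named in all 6 lists (Trpc6, Gabrg1, Kcnj3, Grik2, Grin3a and Htr1f), which is 27.3% against 19.0% of all 2013 genes named. Counting peaks of any name on the footprint, 9 genes had a peak in all 6. In 51 of 132 pairs of gene and list no peak was named for the gene, and in 7 of these a peak named for another gene lay on the same footprint. Merging the peaks of all lists gave 42 member regions. Of these, 13 (31.0%) held a peak in all 6 lists, against 21.7% of 2176 autosomal regions, and 17 (40.5%) in 1 list, against 52.4%. The direction depended on the setting. With at least 50% of the region covered, 3 of 42 member regions were in all 6 lists (7.14%), below the 13.2% of all regions. In the upper 50% of each list by fold enrichment, 2 of 17 genes were (11.8%), below 18.6%. The regions in all 6 lists were wide, with a median of 234 kb, and those in 1 list narrow, with 18.2 kb.

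Member peaks were poorer in GC and richer in repeats than the lists as a whole. The median GC content was 38.0 to 40.0% for members and 39.6 to 41.7% for all autosomal peaks, and the members' median was lower in each of the 6 lists. The intervals of both medians were apart in 5 lists and overlapped in GFP CSDS. Chromosomes 1 to 19 have 41.9%. Repeat-masked bases made up a median of 45.3 to 51.7% of member peaks and 39.4 to 44.2% of all peaks, with 33.5% over chromosomes 1 to 19, and these intervals were apart in GFP control and GFP CSDS alone. The peak centre lay in an L1 element for 97 of 245 members (39.6%) and 4167 of 13794 peaks (30.2%). The excess was not in every list: in Zbt-KD control the shares were 31.0% and 31.6%, and in GFP SSDS 28.6% and 26.5%. The part of GC content, repeats and mappability in these peaks was not tested.

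**Figure D5:**
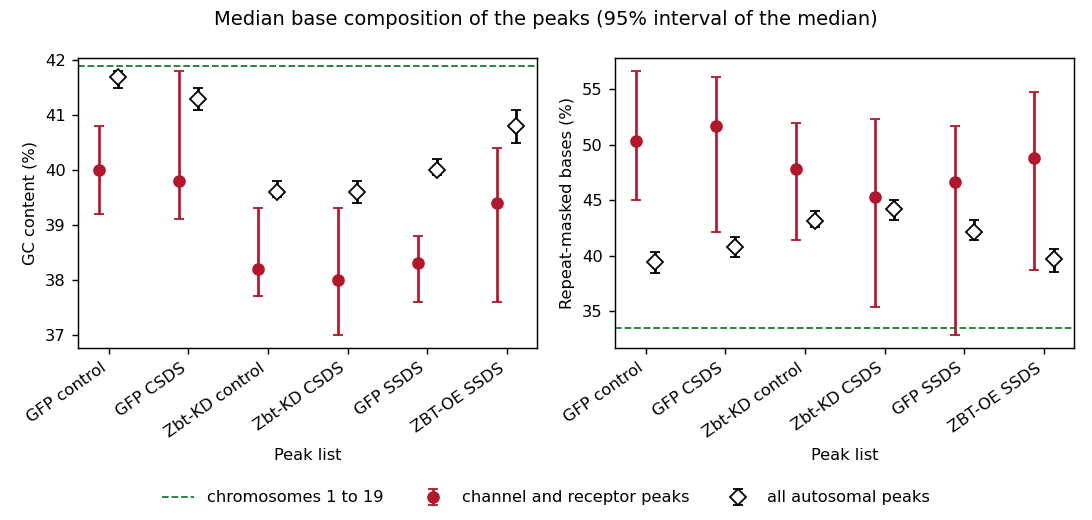
Median GC content (left, %) and repeat-masked share (right, %) of channel and receptor peaks (circles) and all autosomal peaks (diamonds) in each list, with 95% intervals of the median and the value of chromosomes 1 to 19 as a dashed line. The axes do not start at 0. Circles lie below the diamonds for GC and above them for repeats in all 6 lists.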

How the data were processed

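ATAC-seq of ACSA-2-isolated OFC astrocytes was analysed from 6 deposited peak lists, 1 per group (32 samples). The authors aligned reads with HISAT2 to mm10, kept unique alignments without duplicates, and called peaks with MACS 2.1 (no fragment model, reads shifted by 100 bp and extended to 200 bp, FDR threshold 0.05). The way samples were combined into a list is not given in the sources used here, so depth is unknown and all members rest on 1 call per group. The deposited fold enrichment is a ratio of peak signal to background, the deposited q-value that of the caller, and the deposited distance runs from peak centre to TSS. Starts are counted from 1: deposited distances matched GENCODE M21 starts exactly for 8135 of 13415 peaks on that count and 4178 counting from 0.

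The members and lists were chosen with earlier results of these data known. Named genes were those in all 6 lists (at most 10), those with a start site in a peak, the 3 highest opened and closed peaks per contrast, listed genes overlapped, the widest peak per list and up to 3 genes with most peaks per list. The remaining members were named to account for each, except genes whose own results are not reported here and which enter the totals alone, and genes that only had a peak in their body were named after their values were seen. Intervals came from scipy, sequences from RefSeq GRCm38.p6 through pysam. The interval and overlap code was tested on simulated data. Alternatives were another scale, threshold, overlap, gene assignment and reference point.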

Additional observations from a re-analysis of the deposited data

Results flagged for a closer look

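Chromosome X was left out of the comparisons, and its channel and receptor peaks covered more ground in some groups than in the control list of the same experiment. No test was possible, and the lists differ in scale. Over all autosomal peaks the length was 144 Mb in GFP control and 169 to 176 Mb in the other lists of the knockdown experiment. More ground than in GFP control was thus not particular to these genes. At Glra2, a glycine receptor subunit gene, peaks covered 27.3 kb in GFP control, and more in GFP CSDS (121 kb), Zbt-KD control (64.0 kb) and Zbt-KD CSDS (88.1 kb). Gria3, an AMPA receptor subunit gene, had 615 kb in GFP CSDS against 601 kb in GFP control, but less in Zbt-KD control (477 kb) and Zbt-KD CSDS (494 kb). Gabre, a GABA-A receptor subunit gene, had 146 kb in Zbt-KD control against 15.8 kb in GFP control, and no peak in GFP CSDS or Zbt-KD CSDS. Htr2c, a serotonin receptor gene, had 18.9 kb in the unstressed Zbt-KD list and 13.1 kb in the stressed one, and no peak in GFP control or GFP CSDS. In the overexpression experiment, Gabre and Htr2c had no peak in either list and Gria3 had 650 kb in both. Glra2 had 91.3 kb in ZBT-OE SSDS against 143 kb in GFP SSDS.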

How the results depend on the processing

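Of 115 values recomputed, 97 stayed within the interval of the reported value or within 1.5 times the count, and 18 did not. None moved when symbols of no subunit, the overlap rule in the contrasts, chromosome X or the peak edge were changed. At 1 scale (gaps up to 20364 bp merged, widths under 20269 bp dropped) the share in GFP control was 2.42%. Opened peaks with CSDS were 18.2% (background 25.6%) and closed ones 26.7%, now above a background of 11.6%. Closed peaks were then 9.09% in Zbt-KD CSDS against GFP CSDS (background 16.1%) and 0% in Zbt-KD control against GFP control (background 9.69%). In the upper 50% of each list by fold enrichment, the shares in GFP SSDS and ZBT-OE SSDS were 1.29% and 1.19%. Opened peaks in Zbt-KD control against GFP control were then 0% (background 13.2%) and closed ones 32.7% (background 36.9%). Closed peaks in Zbt-KD CSDS against Zbt-KD control were 30.0% (3 of 10), now above a background of 20.7%. There 2 of 17 genes (background 18.6%) and 7 of 23 regions (background 26.2%) were in all 6 lists, and with 50% of the region covered 3 of 42 regions (background 13.2%), so members fell below the background in the first and the last. Peaks that overlap the body of a channel or receptor gene made up 0.739% of GFP control, 0.440% of GFP CSDS, 1.31% of Zbt-KD control, 1.10% of Zbt-KD CSDS, 1.17% of GFP SSDS and 1.58% of ZBT-OE SSDS. The median distance of members exceeded that of all peaks in 6 of 6 lists under every alternative run, although in ZBT-OE SSDS it fell from 192 to 74.9 kb in the upper 50%. Fewer peaks enter the stricter settings by construction, and otherwise the cause was not tested. No paired analysis was possible because the lists hold no value per sample, and leaving out a replicate could not be run for the same reason.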
